A study of Homo sapiens with 8 samples.

Results

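The genes described here are the hepatocyte transcription factor genes HNF4A, FOXA1, FOXA2, FOXA3, CEBPA, CEBPB, ONECUT1, NR1H4 and PROX1. They were taken by symbol and are 9 of the 24462 genes in the table. They were measured by RNA sequencing in HepG2, a human liver tumour line. One group overexpressed EDN1 (labelled EDN1 O/E), the gene of the secreted vasoconstrictor peptide endothelin-1, and the other was labelled mock. Each group held 4 libraries, called EDN1 1 to 4 and mock 1 to 4 by the replicate numbers of the labels. The labels give no other treatment, and they do not say how EDN1 was introduced, what the mock cells received, whether either line was a single clone, or whether the libraries came from separate cultures. The p-values therefore measure only the spread between these libraries, which may be technical.

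Hepatocyte identity is held by a small network of transcription factors that bind each other's genes and many of the same liver genes. HNF4A is a nuclear receptor that activates genes of lipoproteins, clotting factors and other plasma proteins. The FOXA proteins are forkhead factors that open chromatin at liver enhancers, and the C/EBP proteins CEBPA and CEBPB are basic leucine zipper factors, CEBPA tied to metabolic genes of resting hepatocytes and CEBPB to the acute phase response and growth. ONECUT1 (also called HNF6) acts in hepatocyte and bile duct development, NR1H4 encodes the bile acid receptor FXR, and PROX1 encodes a homeobox factor of the early liver bud that can act as a corepressor of HNF4A.

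The upstream sequences of HNF4A are shown because the counts do not separate transcripts by start, and HNF4A transcripts begin at 2 distant starts. Sequences are from RefSeq, build GRCh38.p14, on the plus strand, and each covers the 150 bases before a start. These windows overlapped no exon of the GENCODE annotation of that genome. The reads were aligned to another build, so these positions are not those of the reads. Capitals mark a match to ATCAAT, the core of the ONECUT site, searched on both strands.
HNF4A, upstream start, chr20:44355549-44355698: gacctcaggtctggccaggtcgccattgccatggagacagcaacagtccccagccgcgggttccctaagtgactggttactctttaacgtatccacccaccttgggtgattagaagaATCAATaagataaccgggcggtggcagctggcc
HNF4A, downstream start, chr20:44401089-44401238: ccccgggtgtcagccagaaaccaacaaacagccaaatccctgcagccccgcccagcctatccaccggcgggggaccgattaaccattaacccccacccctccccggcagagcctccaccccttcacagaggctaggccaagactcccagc

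The upstream HNF4A window held 1 ATCAAT match and the downstream window held none of the motifs searched. The table of promoters held 7 of the 9 genes (not FOXA2 or PROX1), with 9 starts between them. Of these 9 starts, 1 held ATCAAT, against 3.04% of 35116 human starts searched in the same 150 bases. TATAAA, the TATA element, was in 3 of the 9 (FOXA3, CEBPA and 1 start of CEBPB), against 6.71% of all starts. The forkhead letters TGTTTNC (9.33% of all starts), the C/EBP letters TTGCNNAA (5.02%) and CCAAT (23.5%) were in 0 of the 9. Both strands were searched for each motif, and no matches overlapped. A match is a run of letters and not a measured binding site.

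Total counts ran from 8571252 to 11686180 in EDN1 overexpression and from 8409173 to 14932385 in mock. EDN1 had 2803, 2284, 4764 and 4752 counts in EDN1 1 to 4 and 29, 9, 9 and 20 in mock 1 to 4, and no library went against its label. The libraries were divided by the gene counts of these data into a second library set (EDN1 3, EDN1 4 and mock 4) and a first library set of 5. The EDN1 counts alone do not give this division, with 29 in mock 1 of the first set and 20 in mock 4. The second set lay at 17.1, 48.4 and 32.8 on the first principal component of log2 expression, which held 40.2% of the variance, and the first set at -30.2 to 2.9. Mock 2, at 2.9, lay closer on this component to EDN1 3 than to any other library of the first set, so the division is not a clean one. No label gives a batch, and mock 2 (-43.4) and EDN1 3 (45.8) lay farthest apart on the second component, with 29.7%. Of the hepatocyte markers, 8 of 8 were tested, with a summed level of 5460 to 7570 CPM (the count scaled to the library's total) in EDN1 overexpression and 5530 to 7760 CPM in mock. Endothelial markers summed to 0.467 to 1.09 CPM in EDN1 overexpression and 0.572 to 1.07 CPM in mock, with KDR at 0 in all libraries. Fibroblast markers summed to 38.9 to 270.0 CPM in EDN1 overexpression and 34.5 to 192 CPM in mock, carried by ACTA2, with LUM at 0. Blood markers summed to 391 to 787 CPM in EDN1 overexpression and 422 to 780 CPM in mock, carried by LYZ, with CD3E at 0. Biliary and progenitor markers summed to 842 to 1220 CPM in EDN1 overexpression and 851 to 999 CPM in mock, carried by KRT19, SPP1 and SOX9, with CFTR at 0. The CPM of single genes below are also scaled by TMM, edgeR's factor for differences in composition between libraries.

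No hepatocyte transcription factor gene passed the test between EDN1 overexpression and mock. Of the 9 genes, 8 had enough counts to be tested and 0 of these 8 had a Benjamini-Hochberg adjusted p under 0.05 by edgeR's quasi-likelihood method, with 12577 genes in the adjustment. The share of all tested genes that passed was 0.00795%, which is EDN1 alone. At an unadjusted p under 0.05 there were 0 of the 8, against 2.85% of all genes. Without EDN1 2 there were 2 of the 8, PROX1 and NR1H4, against 5.00% of all genes in that fit. For both of these genes EDN1 2 was the only EDN1 library within the mock range. DESeq2 and limma voom also called 0 of the 8. The libraries of the groups overlapped for each of the 8 genes, where 2.04% of all genes had groups that did not overlap. Fold changes were positive for 3 genes (HNF4A, FOXA1 and CEBPA) and negative for 5, with FOXA2 at 0.00 after rounding, against 50.3% positive and 49.7% negative among all genes. The median log2 fold change was -0.03 over the 8 genes and 0 over all genes. In bulk RNA, fewer cells with a transcript and less of it per cell cannot be told apart.

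These comparisons left room for small changes. All of the 8 genes had a 95% interval that held no change of 2-fold or more, up or down, as did 79.4% of all tested genes. The intervals of HNF4A and FOXA2 also held no change of 1.5-fold or more, which was so for 38.2% of all tested genes. For the other 6, a 1.5-fold change in at least 1 direction lay inside the interval.

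**Figure D1:**
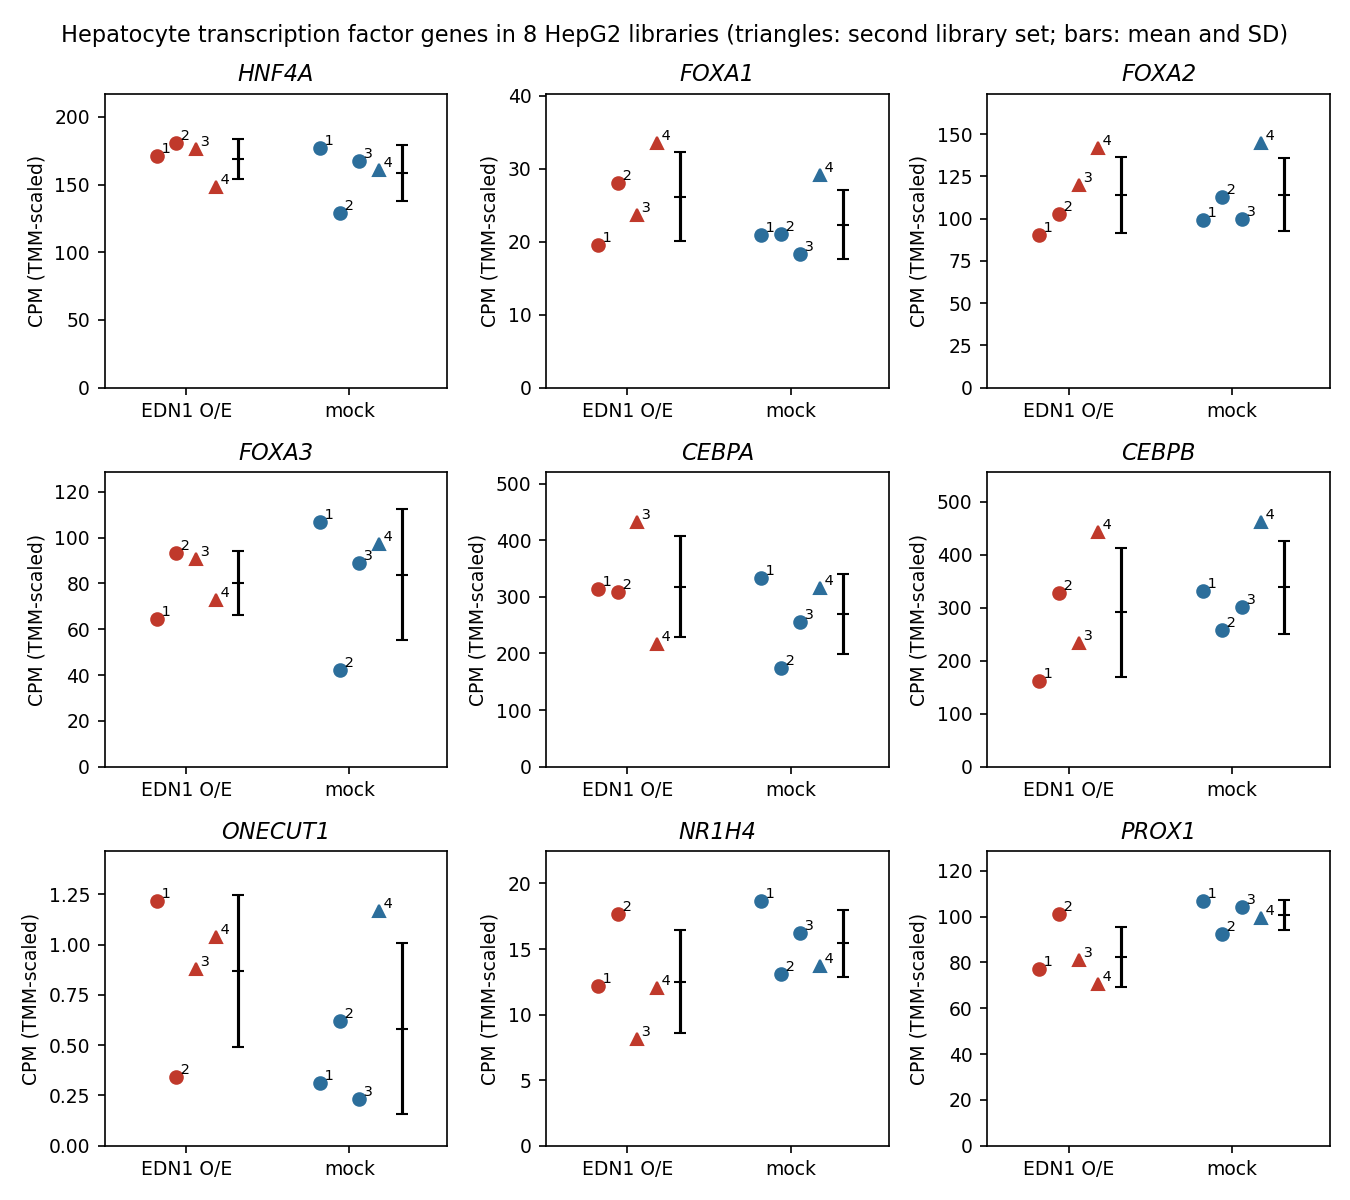
CPM scaled by TMM library sizes (y axis, from 0) of the 9 genes in each library, EDN1 overexpression in red and mock in blue, with replicate numbers beside the points, triangles for the second library set, and bars for mean and SD of 4 libraries. The groups overlap in each panel, and ONECUT1 stays at or under 1.22 CPM.

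HNF4A, the nuclear receptor at the centre of the network, was the steadiest of the 8 genes. It had 171, 181, 176 and 148 CPM in EDN1 1 to 4, against 177, 129, 167 and 161 CPM in mock 1 to 4. EDN1 4 and mock 2 were the low libraries of their groups, and the highest and lowest of the 8 differed 1.40-fold. The means were 169 ± 14.6 CPM in EDN1 overexpression and 158 ± 20.5 CPM in mock (SD, n = 4 each). On the log2 scale the fold change was 0.09 (SE 0.14, 95% interval -0.23 to 0.41). A rise above 1.33-fold or a fall below 0.854-fold lay outside that interval. HNF4A rested on 1046 to 2333 counts per library, a counting error of 2.07% to 3.09%. The SD of its log2 CPM over the 8 libraries was 0.16, higher than in 23.6% of the 500 genes of most similar level. Its paralogue HNF4G had 8 to 20 counts in EDN1 overexpression and 11 to 32 in mock.

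FOXA1 and FOXA2, 2 of the 3 forkhead genes, kept similar patterns over the libraries, and these did not follow the groups. FOXA1 had 19.5, 28.1, 23.6 and 33.6 CPM in EDN1 1 to 4, against 20.9, 21.0, 18.3 and 29.2 CPM in mock 1 to 4. FOXA2 had 90.3, 103, 120 and 142 CPM in EDN1 1 to 4, against 99.0, 113, 100 and 145 CPM in mock 1 to 4. For FOXA2 the 3 libraries of the second set were the 3 highest, at 120 to 145 CPM against 90.3 to 113 CPM in the first set. For FOXA1 the second set held the 2 highest values, EDN1 4 and mock 4, and EDN1 3 lay within the first set. FOXA1 had a fold change of 0.22 on the log2 scale (SE 0.21, 95% interval -0.24 to 0.69), with 26.2 ± 6.05 CPM in EDN1 overexpression and 22.4 ± 4.74 CPM in mock (SD, n = 4 each). FOXA2 averaged 114 ± 22.3 CPM in EDN1 overexpression and 114 ± 21.3 CPM in mock (SD, n = 4 each), a fold of 0.997 with a 95% interval of 0.752 to 1.32. With the library set as a term, the log2 fold change was 0.14 (SE 0.17) for FOXA1 and -0.12 (SE 0.11) for FOXA2. What part the library set has in these levels was not tested, because these counts themselves defined the sets.

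FOXA3, the forkhead gene that stays most active in adult liver, showed another pattern. It had 64.3, 93.2, 90.7 and 72.9 CPM in EDN1 1 to 4, against 107, 42.2, 88.8 and 97.2 CPM in mock 1 to 4. Mock 2 held the lowest value and mock 1 the highest, 2.53-fold apart, so the mock libraries enclosed all of the EDN1 libraries. The log2 fold change was -0.06 (SE 0.26, 95% interval -0.64 to 0.51). It was -0.28 without mock 2 and 0.08 without mock 1.

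The ratio of counts of 2 genes in 1 library does not depend on the scaling between libraries. FOXA2 made up 51.9%, 46.0%, 51.2% and 57.1% of the FOXA1, FOXA2 and FOXA3 counts in EDN1 1 to 4, against 43.7%, 64.1%, 48.3% and 53.4% in mock 1 to 4. Mock 2 had the largest FOXA2 share, with a 95% exact binomial interval of 61.6% to 66.6%, and mock 1 the smallest, 41.9% to 45.5%. These intervals cover counting error only. FOXA3 made up 29.3% to 41.5% in EDN1 overexpression and 23.9% to 47.1% in mock, and FOXA1 10.1% to 13.5% and 8.84% to 11.9% in the same groups. The log2 ratio of FOXA1 to FOXA2 was -2.13 ± 0.20 in EDN1 overexpression and -2.35 ± 0.10 in mock (SD, n = 4 each; two-sided exact permutation p = 0.114, or 0.342 after adjustment over the 3 ratios tested). The log2 ratio of FOXA3 to FOXA2 was -0.50 ± 0.34 in EDN1 overexpression and -0.51 ± 0.67 in mock (SD, n = 4 each; two-sided exact permutation p = 0.971, adjusted 0.971). The smallest p that 4 against 4 libraries allow is 0.0286.

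The C/EBP genes, with FOXA3, had the widest spread between libraries. CEBPA, the factor of resting hepatocytes, had 314, 308, 433 and 217 CPM in EDN1 1 to 4, against 333, 175, 256 and 315 CPM in mock 1 to 4. EDN1 3 was the highest library and mock 2 the lowest, 2.47-fold apart. The means were 318 ± 88.5 CPM in EDN1 overexpression and 270.0 ± 71.3 CPM in mock (SD, n = 4 each), or 0.24 on the log2 scale (SE 0.25, 95% interval -0.31 to 0.78). Without EDN1 3 it was 0.05. The SD of log2 CPM of CEBPA was higher than in 80.6% of 500 genes of similar level.

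CEBPB, the acute phase and growth factor, had 162, 328, 233 and 443 CPM in EDN1 1 to 4, against 332, 259, 302 and 463 CPM in mock 1 to 4. EDN1 1 and EDN1 3 were the lowest of the 8 libraries, below every mock library, while EDN1 2 and EDN1 4 lay within the mock range. The highest and lowest libraries were 2.87-fold apart, and counting error was 1.22% to 2.24% per library, from 1987 to 6705 counts. The SD of log2 CPM of CEBPB was 0.50, higher than in 88.0% of 500 genes of similar level. The means were 291 ± 122 CPM in EDN1 overexpression and 339 ± 88.2 CPM in mock (SD, n = 4 each). CEBPB differed by -0.22 on the log2 scale (SE 0.30, 95% interval -0.87 to 0.43). It was -0.02 without EDN1 1 and -0.49 without EDN1 4. Within the library sets it was -0.28 (SE 0.28) in the first and -0.46 (SE 0.45) in the second, where the lone mock library is assumed to vary like the EDN1 libraries.

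CEBPA and CEBPB lay on opposite sides of their own means in EDN1 1, EDN1 3, EDN1 4 and mock 3. They lay on the same side in EDN1 2, mock 1, mock 2 and mock 4. There were 0.515, 1.07, 0.538 and 2.04 CEBPB counts for each CEBPA count in EDN1 1 to 4, against 0.995, 1.48, 1.18 and 1.47 in mock 1 to 4. EDN1 1 and EDN1 3 lay below all mock libraries and EDN1 4 above all of them. The log2 ratio was -0.18 ± 0.94 in EDN1 overexpression and 0.34 ± 0.28 in mock (SD, n = 4 each). The difference was -0.52 (two-sided exact permutation p = 0.314, adjusted 0.471), and -0.92 without EDN1 4 and -0.26 without EDN1 1. Distance between genes was taken as the root mean square difference between their centred log2 CPM over 8 libraries. Of the 28 pairs among the 8 tested genes, CEBPA and CEBPB lay farthest apart, at 0.65, and FOXA1 and FOXA2 closest, at 0.18. This measure grows with the spread of the genes, and the SD of log2 CPM was 0.40 for CEBPA and 0.50 for CEBPB.

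**Figure D2:**
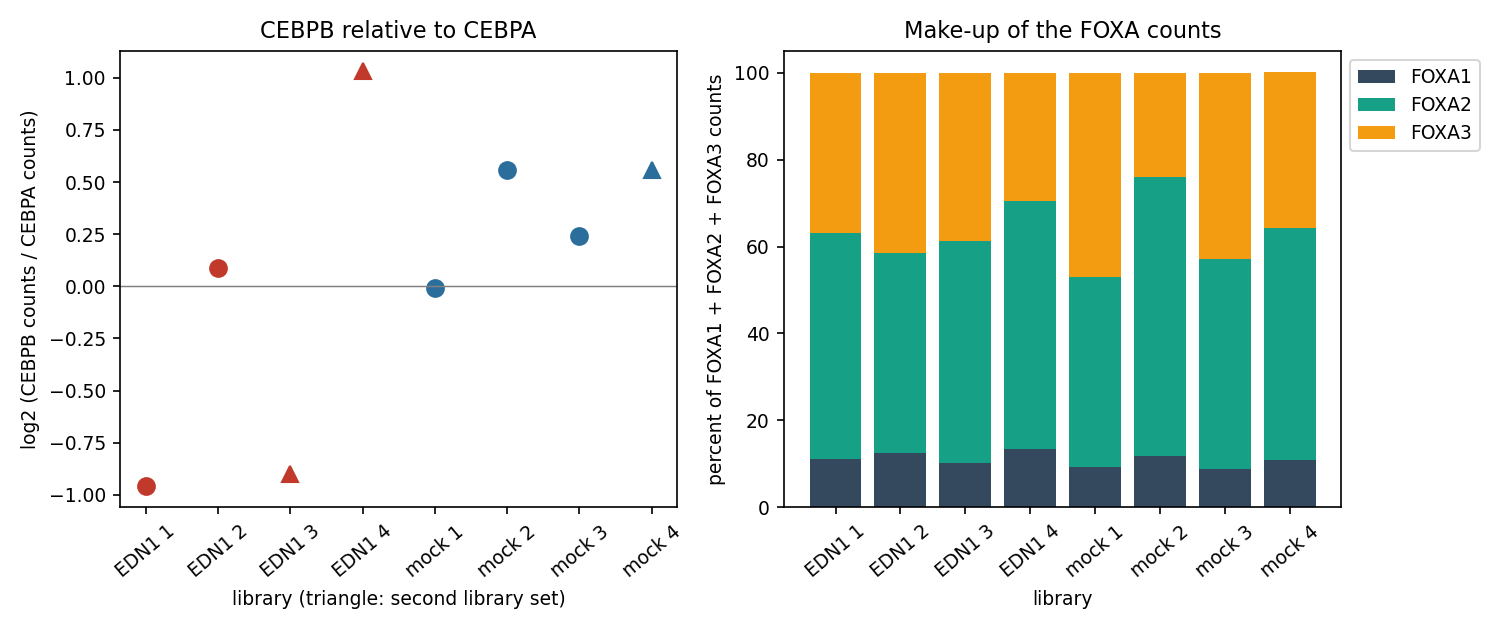
Left, log2 ratio of CEBPB to CEBPA counts (y axis) in each library (x axis), EDN1 overexpression in red, mock in blue and triangles for the second library set; right, percent of the summed FOXA1, FOXA2 and FOXA3 counts (y axis) that each gene holds in each library. The CEBPB to CEBPA ratio spans -0.96 to 1.03 in EDN1 overexpression and -0.01 to 0.56 in mock.

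NR1H4, the bile acid receptor gene, had 12.2, 17.7, 8.16 and 12 CPM in EDN1 1 to 4, against 18.7, 13.1, 16.2 and 13.7 CPM in mock 1 to 4. EDN1 1, 3 and 4 lay below every mock library and EDN1 2 within the mock range. On the log2 scale NR1H4 was at -0.30 (SE 0.24, 95% interval -0.84 to 0.23). Levels in the second library set averaged 11.3 CPM and in the first 15.6 CPM. Within the sets the log2 fold change was -0.11 (SE 0.25) in the first and -0.45 (SE 0.48) in the second, and it was -0.14 without EDN1 3. Without EDN1 2, the EDN1 library within the mock range, the log2 value was -0.52 (SE 0.23; edgeR, unadjusted p = 0.0474, adjusted p = 0.914). The other fits that left out 1 library gave NR1H4 an edgeR unadjusted p of 0.182 to 0.53. NR1H4 rested on 93 to 239 counts per library, the fewest of the 8 tested genes.

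PROX1, the homeobox gene, had the smallest unadjusted p of the 8 genes. It had 76.9, 101, 80.9 and 70.4 CPM in EDN1 1 to 4, against 107, 92.3, 104 and 99.5 CPM in mock 1 to 4. EDN1 1, 3 and 4 lay below every mock library, and EDN1 2 alone lay within the mock range. The means were 82.3 ± 13.1 CPM in EDN1 overexpression and 101 ± 6.38 CPM in mock (SD, n = 4 each). EDN1 overexpression over mock came to -0.29 on the log2 scale (SE 0.15, 95% interval -0.62 to 0.03; edgeR, unadjusted p = 0.0718, adjusted p = 1). In order of unadjusted p, PROX1 was number 546 of 12577 genes. Its log2 fold change was negative in each of the 8 fits that left out 1 library, between -0.40 and -0.23. It was also negative within each library set, at -0.19 (SE 0.18) and -0.41 (SE 0.38), the second with a lone mock library. With EDN1 1, 3 and 4 below every mock library, leaving out 1 library could hardly turn the sign. CEBPB (-0.49 to -0.02) and NR1H4 (-0.52 to -0.14) were also negative in each of these fits and in both sets. The PROX1 value of -0.40 came without EDN1 2, the EDN1 library within the mock range (edgeR, unadjusted p = 0.019, adjusted p = 0.914). The other fits that left out 1 library gave PROX1 an edgeR unadjusted p of 0.063 to 0.167. The adjusted p of PROX1 was at least 0.892 in every alternative run.

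ONECUT1 was near the limit of detection and was not tested. It had 15, 3, 10 and 9 counts in EDN1 1 to 4, against 4, 5, 2 and 17 counts in mock 1 to 4. These are 1.22, 0.340, 0.877 and 1.04 CPM in EDN1 overexpression and 0.312, 0.618, 0.232 and 1.17 CPM in mock, and the groups overlap. For scale, 3 counts were taken as an approximate upper bound on the expected count where 0 is seen. They are 0.201 to 0.357 CPM depending on the library, by total counts without TMM, unlike the ONECUT1 values. Without the filter on low counts the log2 fold change was 0.53 (SE 0.57, 95% interval -0.68 to 1.73). Its paralogue ONECUT2 had 415 to 596 counts in EDN1 overexpression and 401 to 700 in mock, a difference of -0.11 on the log2 scale (SE 0.13).

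**Figure D3:**
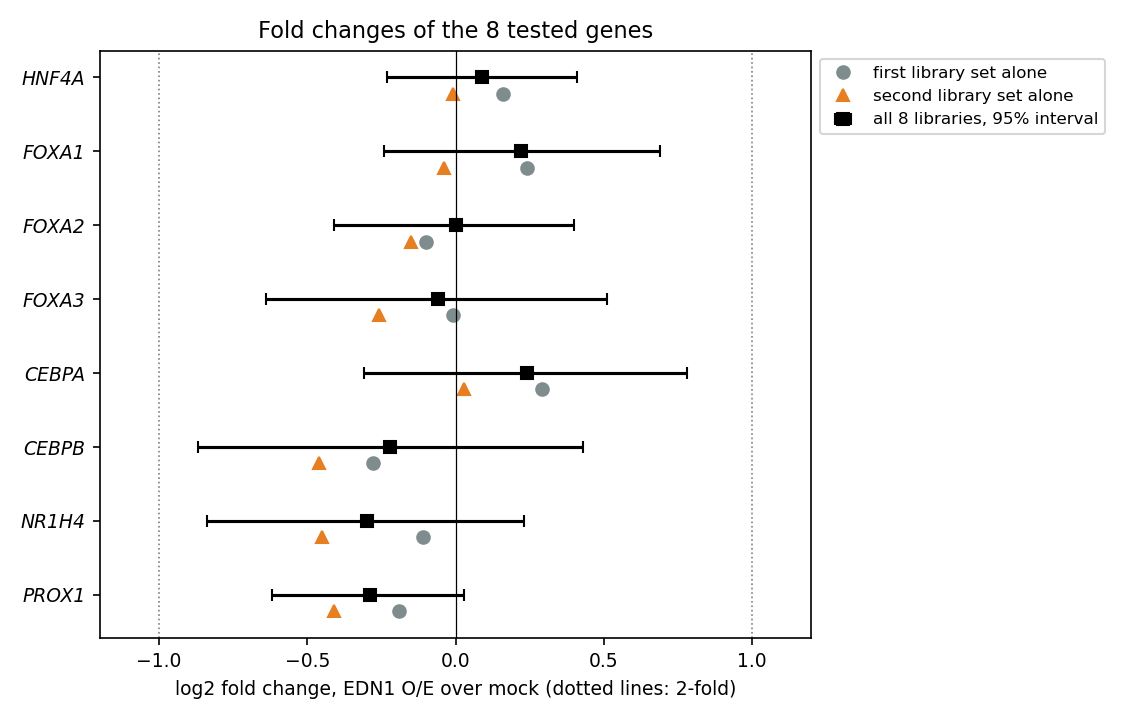
Log2 fold change of EDN1 overexpression over mock (x axis) for the 8 tested genes (rows), with 95% intervals over all libraries as black bars and values within the first (grey circles) and second (orange triangles) library set. All of the intervals cross 0 and lie between the dotted lines at 2-fold.

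The library patterns fell along different lines. In mock 2, FOXA3, CEBPA and HNF4A were each at their lowest, 0.90, 0.70 and 0.33 log2 units below their own means, written as -0.90, -0.70 and -0.33 in the plot of centred levels. FOXA2 and PROX1 in mock 2 lay at 0.00 and 0.03. In EDN1 1, CEBPB lay at -0.89 while CEBPA lay at 0.14. In EDN1 3, CEBPA was highest of all libraries (0.61), and NR1H4 was lowest (-0.72). The median SD of log2 CPM over the libraries was 0.34 for the 8 genes and 0.32 for all tested genes.

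**Figure D4:**
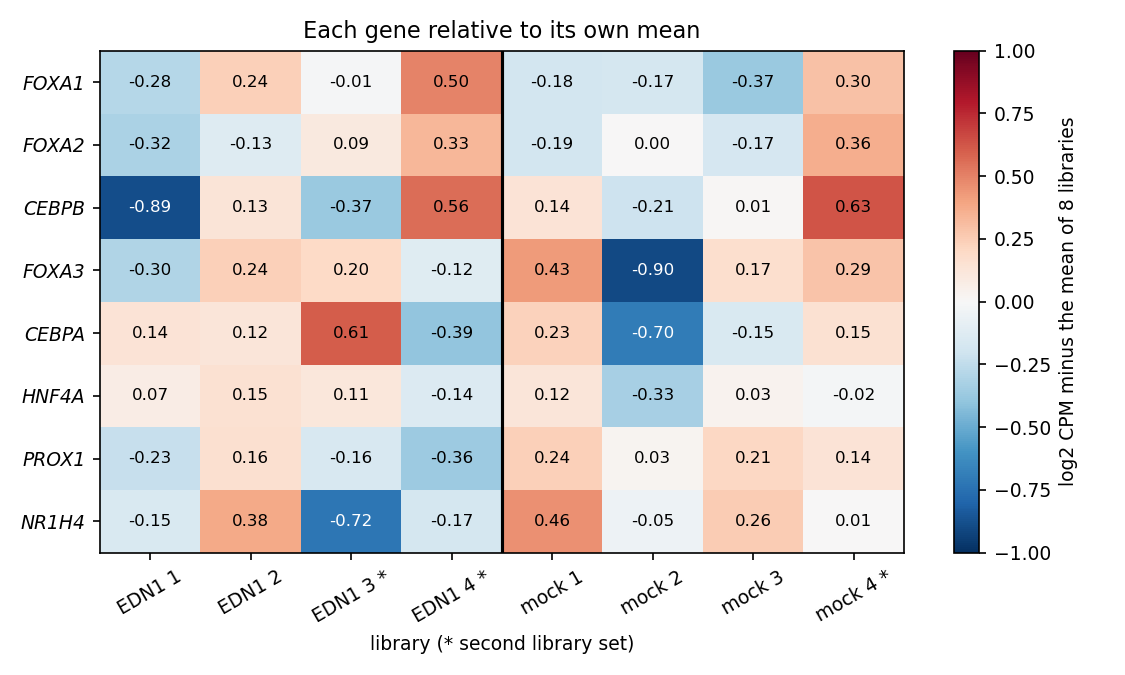
Log2 CPM of each tested gene (rows) in each library (columns) minus the gene's mean over the 8 libraries, from -1 in blue to 1 in red, with a line between EDN1 overexpression on the left and mock on the right. CEBPB reaches 0.63 in mock 4 and -0.89 in EDN1 1, while HNF4A stays between -0.33 and 0.15.

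Among 8696 other genes of at least 10 CPM, the genes whose pattern lay closest to HNF4A were CUL5, CWC22 and C9orf40. Their root mean square differences in centred log2 CPM over the 8 libraries were 0.051, 0.056 and 0.059, where the median gene lay at 0.29. CUL5 had 44.6 to 54.8 CPM in EDN1 overexpression and 37.3 to 52.0 CPM in mock, with its lowest value in mock 2, as for HNF4A. For CEBPB, the gene with the largest spread, BTG1 (0.152) and CLCN2 (0.171) were among the 3 closest, where the median gene lay at 0.531. BTG1 had 61.4, 103, 95.5 and 173 CPM in EDN1 1 to 4, against 109, 112, 116 and 189 CPM in mock 1 to 4. The genes named here were picked as the closest, so they lie below the median gene by selection. The libraries share the same cell line and the sets named above, so these are descriptions of likeness in 8 libraries.

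The order of the genes by level depended on the scale. Averaged over the 8 libraries, plain CPM were 315 for CEBPB, 294 for CEBPA, 164 for HNF4A, 114 for FOXA2, 91.5 for PROX1, 82.0 for FOXA3, 24.3 for FOXA1, 14.0 for NR1H4 and 0.727 for ONECUT1. Per kilobase of the deposited gene length, they were 149 CPM per kilobase for CEBPB, 112 for CEBPA, 47.3 for FOXA2, 41.2 for FOXA3, 32.4 for HNF4A, 10.5 for PROX1, 7.19 for FOXA1, 5.42 for NR1H4 and 0.302 for ONECUT1. HNF4A thus lay above FOXA2 and FOXA3, and PROX1 above FOXA3, in plain CPM, and below them per kilobase. Which scale fits depends on the kit: one that reads transcript ends gives levels that do not grow with length. The labels name a Quant-Seq kit, but its catalogue number leaves doubt about which kit was used. Level and length were nearly unrelated (Spearman 0.02 across 12577 genes, which are not independent). Over the 8 libraries, the ranges of neighbours in the plain order overlapped, except those of FOXA3 and FOXA1 and of NR1H4 and ONECUT1. Compared within each library, CEBPA also lay above HNF4A, HNF4A above FOXA2 and FOXA1 above NR1H4 in all 8. The ranges of neighbours in the order per kilobase overlapped too, except that CEBPA lay above FOXA2, HNF4A above PROX1 and NR1H4 above ONECUT1 in all 8. In plain CPM, CEBPB had a mean level above 95.8% of tested genes, CEBPA above 95.4%, HNF4A above 90.5%, FOXA2 above 86.1%, PROX1 above 82.4%, FOXA3 above 80.3%, FOXA1 above 51.6% and NR1H4 above 38.0%.

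Reads of neighbouring or antisense rows could in part belong to these genes, since the use of strand in counting is not given. CEBPA-AS1 held 2.25% to 3.95% as many counts as CEBPA, and CEBPB-AS1 at most 0.311% as many as CEBPB. HNF4A-AS1 and PROX1-AS1 had at most 1 and 6 counts. LINC00261, a long RNA gene next to FOXA2, held 48.2% to 82.6% as many counts as FOXA2.

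The other liver transcription factor genes gave the same count of calls. Of 29 listed genes, 27 were tested, 0 passed, 10 had positive and 17 negative fold changes, and the median log2 fold change was -0.08. The factors with the highest levels were XBP1, TBX3 and HLF. XBP1, the factor of the unfolded protein response, averaged 609 ± 123 CPM in EDN1 overexpression and 692 ± 223 CPM in mock (SD, n = 4 each; log2 fold change -0.18, SE 0.25). TBX3, a T-box gene, came to -0.09 (SE 0.17) and HLF, a leucine zipper factor, to 0.02 (SE 0.23) on the same scale.

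At an unadjusted p under 0.05 there was 1 of these 27 factors, NR2F2, against 2.85% of all tested genes. It is named for that, after its values were seen. NR2F2, an orphan nuclear receptor that shares binding sites with HNF4A, had 51.7, 39.1, 68.1 and 43.9 CPM in EDN1 1 to 4, against 36.3, 31.1, 29.2 and 39.7 CPM in mock 1 to 4. EDN1 2 was just below mock 4, and the other EDN1 libraries lay above every mock library. The log2 fold change was 0.57 (SE 0.20, 95% interval 0.14 to 1.00; edgeR, unadjusted p = 0.0145, adjusted p = 1). RXRA, the nuclear receptor partner of NR1H4, was at 0.12 (SE 0.14) and the C/EBP relative CEBPG at -0.42 (SE 0.22) on the log2 scale.

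**Figure D5:**
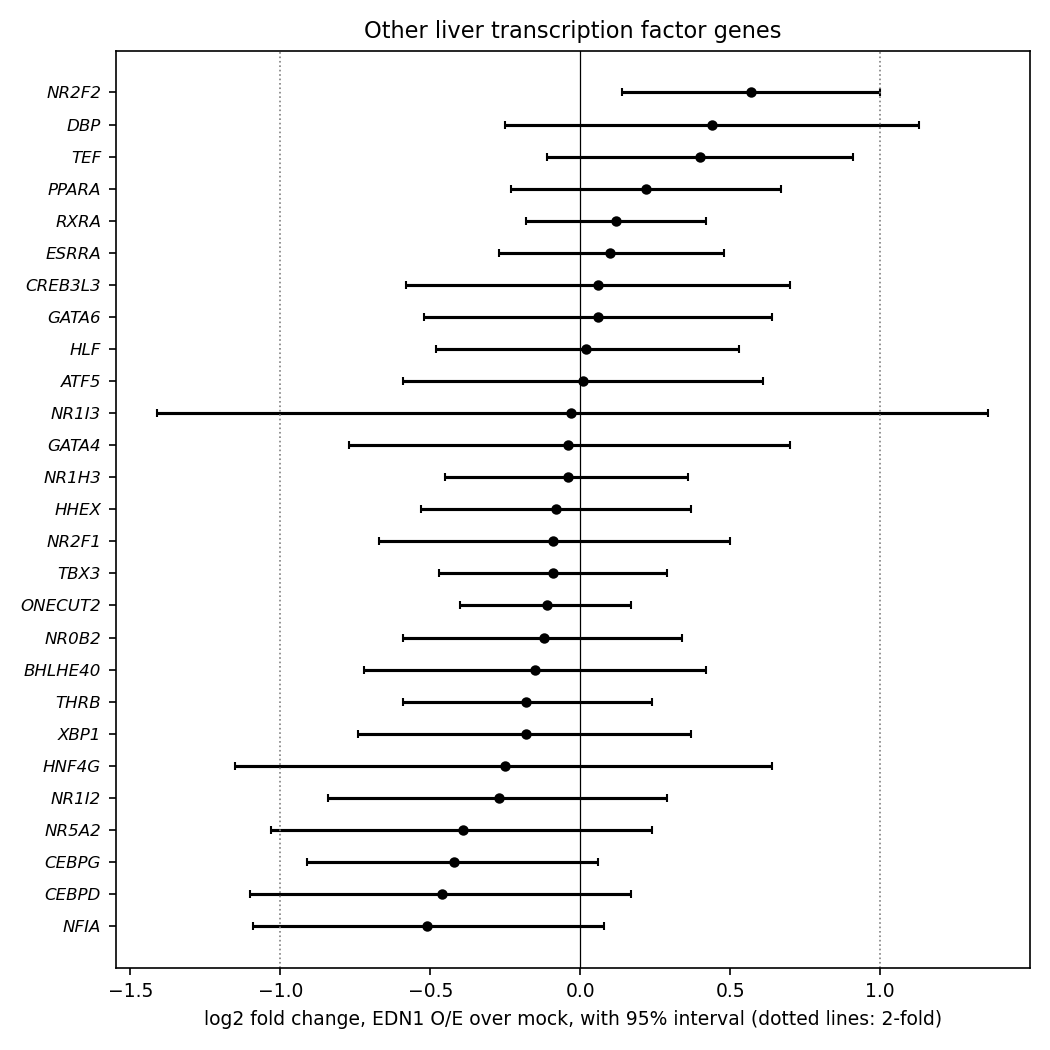
Log2 fold change of EDN1 overexpression over mock (x axis) with 95% intervals for the 27 tested genes of the list of other liver transcription factors (rows, ordered by fold change). The interval of NR2F2, 0.14 to 1.00, lies above 0, and all of the others cross 0.

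Known target genes of the factors were counted from 4 lists, and 0 tested genes of any list passed. Of 23 genes listed as HNF4A targets, 18 were tested, 7 with positive and 11 with negative fold changes and a median log2 fold change of -0.02. The genes of highest level were APOB, the structural protein of very low density lipoprotein, at 0.05 (SE 0.20), APOA2, a protein of high density lipoprotein, at 0.03 (SE 0.28), and AGT, the angiotensin precursor, at -0.01 (SE 0.17) on the log2 scale. GJB1, a liver gap junction gene, was 1 of the 18 under an unadjusted p of 0.05, where 2.85% of all tested genes were, with 257 ± 45.0 CPM in EDN1 overexpression and 193 ± 23.1 CPM in mock (SD, n = 4 each; log2 fold change 0.42, SE 0.16). The transporter gene SLC10A1 had at most 2 counts, and F9, a clotting factor gene, had 0 in all libraries.

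Of 16 genes listed as C/EBP targets, 11 were tested, 5 with positive and 6 with negative fold changes and a median log2 fold change of -0.14. IGFBP1, a secreted binder of insulin-like growth factors, had 963, 2860, 1230 and 5360 CPM in EDN1 1 to 4, against 1800, 3640, 4060 and 3690 CPM in mock 1 to 4. EDN1 1 and EDN1 3 were its lowest libraries and EDN1 4 its highest, and its log2 fold change was -0.34 (SE 0.49). That value rested on single libraries: it was -0.97 (SE 0.40) without EDN1 4, -0.11 without EDN1 3 and -0.07 without EDN1 1. TRIB1, a pseudokinase that promotes the breakdown of CEBPA, averaged 485 ± 144 CPM in EDN1 overexpression and 698 ± 229 CPM in mock (SD, n = 4 each; log2 fold change -0.53, SE 0.27). ALB, the albumin gene, was at 0.03 (SE 0.31) on the log2 scale. HAMP, the hepcidin gene, was 1 of the 11 under an unadjusted p of 0.05, against 2.85% of all tested genes (-0.60 on the log2 scale, SE 0.22), with 159 ± 34.1 CPM in EDN1 overexpression against 241 ± 63.3 CPM in mock (SD, n = 4 each). GJB1 and HAMP are named after their values were seen.

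Of 15 genes listed as FOXA targets, 11 were tested, 7 with positive and 4 with negative fold changes and a median log2 fold change of 0.03. AFP, the fetal plasma protein gene, had 302, 516, 558 and 1000 CPM in EDN1 1 to 4, against 726, 875, 935 and 1570 CPM in mock 1 to 4. EDN1 1, 2 and 3 lay below every mock library and EDN1 4 above 3 of the 4, but below mock 4, the mock library of its own library set. AFP was 1 of the 11 under an unadjusted p of 0.05, against 2.85% of all tested genes, with a log2 fold change of -0.79 (SE 0.35; edgeR, unadjusted p = 0.047, adjusted p = 1). With the library set as a term it was -1.04 (SE 0.23; edgeR, adjusted p = 0.961). These counts themselves defined the sets, so that fit and the match of EDN1 4 to mock 4 are no separate support. Over the fits that left out 1 library the AFP value ran from -1.16 to -0.51.

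Of 21 genes listed as targets of the bile acid receptor NR1H4, 13 were tested, 6 with positive and 7 with negative fold changes and a median log2 fold change of -0.12. NR0B2, the repressor gene that the receptor induces, averaged 121 ± 16.4 CPM in EDN1 overexpression and 132 ± 39.6 CPM in mock (SD, n = 4 each; log2 fold change -0.12, SE 0.21). SDC1, a heparan sulphate proteoglycan gene, was at 0.25 (SE 0.14) and PLTP, the phospholipid transfer protein gene, at 0.31 (SE 0.19) on the log2 scale. The bile salt pump gene ABCB11 and CYP7A1, the rate-limiting enzyme of bile acid synthesis, had 0 counts in all libraries.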

How the data were processed

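RNA from 8 HepG2 libraries, 4 with EDN1 overexpression and 4 mock, was sequenced after preparation with a Lexogen Quant-Seq kit, per the labels' protocols. The authors deposited raw read counts per gene, 1 column per library, with a gene length in bases. Per the submitters' processing notes, Bowtie2, edgeR and build hg19 were used. For the counting tool, strand setting and filters, no detail is given in the sources used here.

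The table had 25737 rows. Repeated symbols (288) were summed to 1 row each, which left 24462; MARCH1 and MARCH2 stayed unsummed because both are names of unlike genes. Genes were filtered with filterByExpr (minimum count 10), scaled by TMM and tested with edgeR 4.0.16 (R 4.3.3) by the quasi-likelihood test on group alone. Benjamini-Hochberg adjustment covered 12577 genes, and 0.05 was the threshold. SE was taken from F as the size of the log2 value over the root of F. Summed marker levels use total counts, and other CPM values TMM-scaled sizes. Ratios add 0.5 to each count. The pipeline was tested on simulated data. Libraries differed by more than sampling noise in every pair (chi-square per degree of freedom 6.16 to 86.5).

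The 9 genes, the lists and the library sets were chosen with earlier results of these data known. Some genes of the lists and of the named genes are not reported here, and the lists were counted without them. Named genes are the 9, EDN1, the 3 of highest level in each list and the 3 closest in pattern to HNF4A and CEBPB; others are said to be named after their values were seen, or are paralogues, antisense neighbours and partners. Alternatives were other scalings and filters, DESeq2 1.42.0, limma 3.58.1 (voom), the replicate number as a block, library set added to the model, each library set by itself, and leaving out each library.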

Additional observations from a re-analysis of the deposited data

How the results depend on the processing

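The count of 0 hepatocyte transcription factor genes past the threshold at an adjusted p held under every alternative; at an unadjusted p under 0.05 it was 2 without EDN1 2 and 0 in all other fits. The count over all genes was 1, and 3 with DESeq2. Among the 8 tested genes, signs turned for FOXA2 with library totals alone (0.03) and, in the second library set alone, for HNF4A (-0.01) and FOXA1 (-0.04), all close to 0. Of the other genes, AGT was at 0.02 with library totals alone. HLF was at -0.02 with limma voom, -0.03 with the replicate block, -0.10 with the library set as a term and -0.18 in the first set alone, and ALB at -0.06, -0.06, -0.06 and -0.13 in the same order. Over the fits that left out 1 library each, log2 fold changes that changed sign ran from -0.13 to 0.13 for FOXA2, -0.28 to 0.08 for FOXA3, -0.13 to 0.21 for APOA2, -0.14 to 0.07 for AGT, -0.32 to 0.08 for CLCN2, -0.31 to 0.19 for ALB, -0.09 to 0.15 for APOB, -0.22 to 0.18 for HLF, -0.26 to 0.08 for NR0B2 and -0.36 to 0.01 for XBP1. The difference in the log2 ratio of FOXA3 to FOXA2 ran from -0.29 to 0.22. The cause of these turns was not tested. Same-numbered libraries did not pair for every number: their deviations from the group means correlated at 0.48, 0.15, -0.15 and 0.53 for numbers 1 to 4. The replicate block called 1 gene. EDN1 1 and EDN1 4 correlated best with the mock library of their own number, and EDN1 2 and EDN1 3 with mock 3 and mock 4. Of the 9 genes, depth limits ONECUT1 most, with at most 17 counts per library. IGFBP1 kept its sign but ran from -0.97 to -0.07 over the fits that left out 1 library, and was -0.60 with limma voom and -0.61 with the replicate block.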

Other observations

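UGT2B4, a glucuronosyltransferase gene on the list of bile acid receptor targets, was too low to be tested and is named here after its values were seen. It had 6, 0, 6 and 3 counts in EDN1 1 to 4, against 11, 7, 7 and 14 counts in mock 1 to 4, so the groups did not overlap. The share among tested genes was 2.04%, but that share leaves out genes too low to be tested, such as UGT2B4. Without the filter on low counts the log2 fold change of UGT2B4 was -1.28 (SE 0.60; edgeR, unadjusted p = 0.0471, adjusted p = 0.933 over 19963 genes).

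NFIA, a nuclear factor I gene of the list of other liver transcription factors, had the most negative fold change on that list and is also named after its values were seen. It had 43.8, 43.4, 21.7 and 35.5 CPM in EDN1 1 to 4, against 41.8, 63.5, 64.4 and 35.7 CPM in mock 1 to 4, and the groups overlap. Its log2 fold change was -0.51 (SE 0.26).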
